A study of Mus musculus with 20 samples.

Results

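The genes described here are the PPARs, the PGC-1 coactivators and nuclear receptors and a cofactor that work with them: *Ppara*, *Ppard*, *Pparg*, *Ppargc1a*, *Ppargc1b*, *Rxra*, *Rxrb*, *Esrra*, *Nr1h3* and *Ncoa2*. They were chosen by name as a family, with earlier results of these data known, and every row of the gene and transcript tables that carries 1 of these symbols was taken. All 10 were found among 13842 genes, with 22 of 26228 transcripts.

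PPARs are nuclear receptors that bind fatty acids and their derivatives, pair with a retinoid X receptor (RXR) and switch on genes of fatty acid uptake, oxidation and storage. The PGC-1 proteins do not bind DNA themselves: they are coactivators that dock on PPARs, on the estrogen-related receptors and on other factors, and in this way drive the making of mitochondria. The proximal tubule of the kidney, which does most of the work of reabsorption, burns fatty acids as its main fuel and is known for high PPARα and PGC-1α activity.

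The study operated on male mice, tied off the left ureter (unilateral ureteral obstruction, UUO) or left it untied (sham), and sequenced RNA of the whole left kidney on day 7. KDM6A Ctrl mice carried Pax8Cre+ alone, and KDM6A TubKO mice were Kdm6afl/Y Pax8Cre+, so every mouse in all 4 groups carried the Cre transgene. Either genotype had sham and UUO mice, and each of the resulting 4 groups held 5 kidneys, 20 in all. KDM6A removes methyl groups from lysine 27 of histone H3, and the floxed exon encodes part of its catalytic JmjC domain. *Pax8*-Cre acts in the tubule epithelium, so the deletion is directed at these cells. Whether the gene is intact in the other cells of the kidney was not tested here. The controls were age-matched, and their age in weeks and whether they were littermates are not given in the sources used here, so genotype and line cannot be told apart. Mice are numbered 1 to 5 within a group, and the numbers pair no mice across groups. The mouse identifiers in the labels fall into 2 number series whose meaning is not given: the first holds 1 of the 5 KDM6A TubKO sham mice and 3 of the 5 mice of every other group. In every group some mice also share the whole number before the hyphen of their identifier, and no such number occurs in 2 groups. What this number stands for is not given, so it cannot be told apart from the group. The tests treat the 5 mice of a group as independent.

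Values are FPKM (fragments per kilobase of transcript, scaled to the mapped fragments of the library). The methods of the study state a read number for the sequencing service, and the depth of each library is not given. The FPKM of a library summed to between 298467 and 387375, with the sums of UUO kidneys (298467 to 316964) below those of sham kidneys (347739 to 387375). Libraries of a group correlated with r between 0.957 and 0.988 on the log2 scale, across genes. *Kdm6a* was listed at 2.05 ± 0.217 FPKM in KDM6A Ctrl sham, 2.96 ± 0.634 in KDM6A Ctrl UUO, 1.2 ± 0.359 in KDM6A TubKO sham and 3.04 ± 0.853 in KDM6A TubKO UUO kidneys (mean ± SD, n = 5). This value covers all exons and all cells, so it does not check the deletion. All 14 proximal tubule markers were detected in every group, as a whole kidney should give. *Havcr1*, which encodes kidney injury molecule-1, was at 55.1 FPKM in KDM6A Ctrl sham mouse 3. The other KDM6A Ctrl sham kidneys had 0.290 to 1.37 FPKM. Mouse 3 was kept in the groups, and the fits that each left out 1 mouse include 1 without it.

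In KDM6A Ctrl sham kidneys the members spanned a wide range of levels, and the most abundant was *Esrra*, an orphan receptor that PGC-1α activates, at 31.9 ± 6.42 FPKM (SD, n = 5). *Rxra* followed at 22.3 ± 2.00 FPKM, *Ppargc1a* at 16.8 ± 1.88 FPKM and *Nr1h3* at 13.9 ± 1.83 FPKM, and the values of neighbours in this order overlapped. *Ppara* came next at 8.08 ± 1.36 FPKM and lay apart from *Nr1h3*. *Rxrb* (5.66 ± 0.424 FPKM), *Ppard* (4.05 ± 1.3 FPKM) and *Ncoa2* (3.68 ± 0.323 FPKM) followed, each overlapping the one before it. *Ppargc1b* (2.75 ± 0.238 FPKM) lay apart from *Ncoa2* and overlapped *Ppard*, whose lowest kidney had 2.93 FPKM, and *Pparg* was lowest at 0.651 ± 0.293 FPKM, apart from all others. In KDM6A TubKO UUO kidneys the bottom of the order was *Ppara*, at 1.15 ± 0.452 FPKM, although its values overlapped those of *Ncoa2*.

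**Figure D1:**
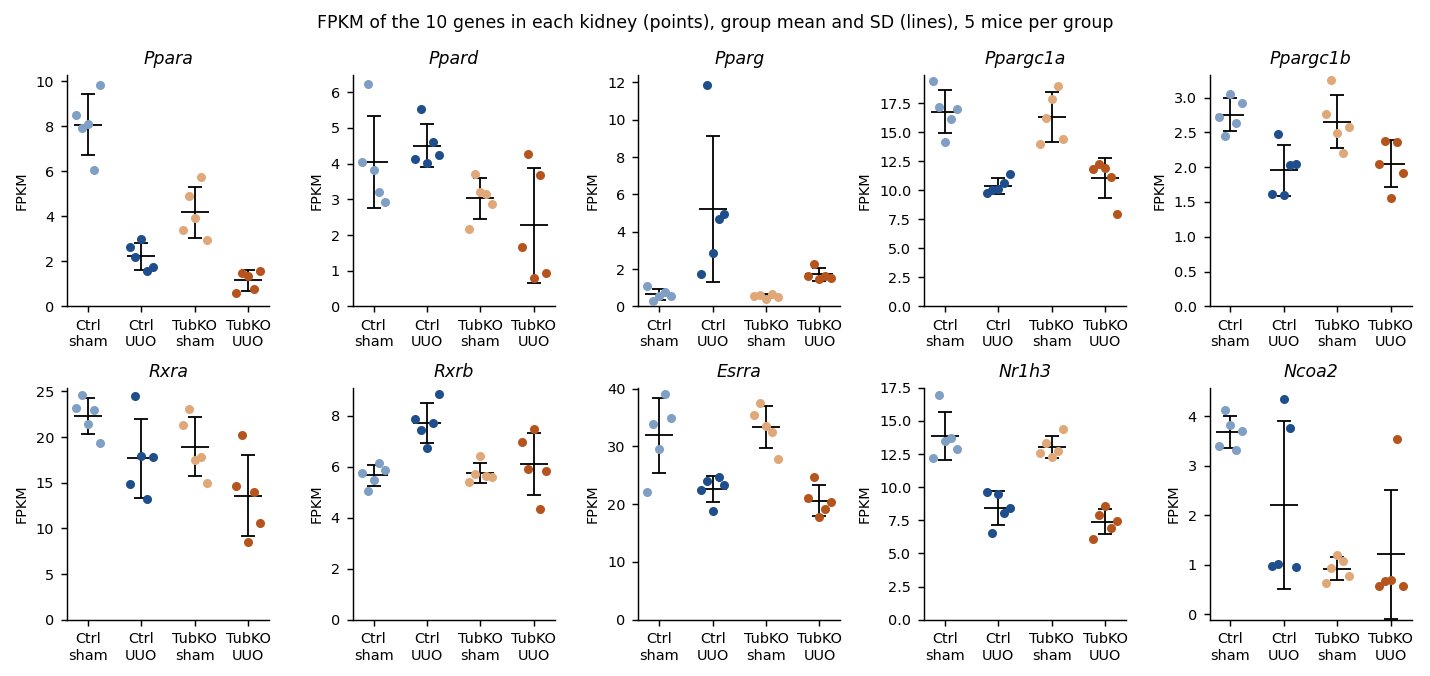
FPKM of the 10 members in each of the 20 kidneys (points) with the group mean and SD (bars), by group, n = 5 each. *Ppara* lay between 6.05 and 9.84 FPKM in KDM6A Ctrl sham kidneys and at 1.58 FPKM or less in every KDM6A TubKO UUO kidney, and *Pparg* reached 11.8 FPKM in 1 KDM6A Ctrl UUO kidney.

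The first comparison asked what obstruction did to these genes in mice with intact *Kdm6a*. Of the 10 members, 6 fell and 2 rose in KDM6A Ctrl UUO against sham kidneys. Over all genes 15.1% fell and 56.7% rose, 71.7% in either direction, so a count of called members is close to what most genes gave here, and it is the direction that differs. In KDM6A TubKO mice 6 members fell and 1 rose, where 16.7% of all genes fell and 57.9% rose. Calls are adjusted p-values under 0.05 from limma on log2(FPKM + 1), with Benjamini-Hochberg adjustment over all 13842 genes, and every log2 fold change below is on that scale, which understates the change of low genes. In whole kidney, fewer cells of a type and less RNA per cell cannot be told apart. In both genotypes all 14 proximal tubule markers fell with obstruction (median log2 fold change -1.57 in KDM6A Ctrl and -2.15 in KDM6A TubKO), and their summed FPKM went from 13867 to 22424 in KDM6A Ctrl sham to 3714 to 11217 in KDM6A Ctrl UUO kidneys, and from 16578 to 26332 to 3206 to 6842 in KDM6A TubKO kidneys. All 14 macrophage and monocyte markers rose, from 31.3 to 87.1 to 522 to 1114 summed FPKM in KDM6A Ctrl and from 43.1 to 57.8 to 620 to 980 in KDM6A TubKO kidneys. These markers move with the surgery itself, so their part in the changes of the members and that of obstruction cannot be told apart.

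*Ppara*, the receptor that drives fatty acid oxidation, was listed at 8.50, 7.91, 8.10, 6.05 and 9.84 FPKM in KDM6A Ctrl sham mice 1 to 5. After UUO the 5 KDM6A Ctrl kidneys had 2.63, 2.19, 3.01, 1.57 and 1.73 FPKM. Every obstructed kidney was below every sham kidney, and *Ppara* fell by 1.5 ± 0.17 on the log2 scale (SE, limma adjusted p = 2.64e-07), among the lowest 1.59% of all genes. KDM6A TubKO mice had it at 3.40, 4.89, 3.93, 5.76 and 2.96 FPKM in sham and at 0.582, 1.49, 1.36, 0.760 and 1.58 FPKM in UUO kidneys. The groups were again apart, with a fall of 1.27 ± 0.17 (limma adjusted p = 1.74e-06). In the KDM6A Ctrl and KDM6A TubKO comparisons 10.5% and 12.6% of all genes had lower groups that did not overlap.

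*Ppard*, the PPAR found in most tissues, did not change detectably in KDM6A Ctrl mice. Its sham kidneys had 4.05, 6.22, 3.82, 3.21 and 2.93 FPKM and its UUO kidneys 4.12, 5.53, 4.03, 4.61 and 4.25 FPKM, which overlap (log2 0.15 ± 0.25, 95% interval -0.36 to 0.67, limma adjusted p = 0.588). The KDM6A TubKO sham kidneys lay close together at 2.17, 3.71, 3.22, 3.14 and 2.88 FPKM, while the UUO kidneys were split, at 1.65, 4.28, 0.791, 3.68 and 0.941 FPKM. Mouse 2 was above every KDM6A TubKO sham kidney, mouse 4 above all but 1, and mice 1, 3 and 5 below all of them. The difference of -0.43 ± 0.25 missed the threshold (limma adjusted p = 0.122) and passed it without KDM6A TubKO UUO mouse 2 (-0.64, limma adjusted p = 0.0158) or mouse 4 (-0.60, 0.0343).

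*Pparg*, best known as the receptor that makes fat cells, was the member that rose most. KDM6A Ctrl sham kidneys had 1.08, 0.286, 0.559, 0.750 and 0.578 FPKM. KDM6A Ctrl UUO kidneys had 1.75, 11.8, 2.85, 4.71 and 4.95 FPKM. All 5 obstructed kidneys were above all sham kidneys, and mouse 2 stood far above the other 4. The rise was 1.73 ± 0.26 on the log2 scale (limma adjusted p = 9.24e-06), 1.42 without mouse 2 and 0.67 (0.00712) with urothelium markers as a covariate. Groups that did not overlap with UUO higher were found for 45.8% of all genes in the KDM6A Ctrl comparison and for 50.1% in that of KDM6A TubKO mice. *Pparg* in KDM6A TubKO mice went from 0.570, 0.585, 0.395, 0.650 and 0.501 FPKM in sham to 1.64, 2.29, 1.45, 1.65 and 1.54 FPKM in UUO kidneys, a smaller rise of 0.81 ± 0.26 with no overlap (limma adjusted p = 0.0093). Quantile normalization ended this call (0.24, limma adjusted p = 0.452), as did the urothelium covariate (0.32, 0.0619). The difference between the rises of the genotypes, -0.92 ± 0.37, had an unadjusted p of 0.0232 and did not pass over all genes (limma adjusted p = 0.239).

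The retinoid X receptors, which pair with PPARs and with LXRα on DNA, did not move together. *Rxra* fell in KDM6A TubKO mice from 21.4, 23.1, 17.5, 17.8 and 15 FPKM in sham to 14.6, 20.2, 8.49, 14 and 10.6 FPKM in UUO kidneys, with overlap (log2 -0.49 ± 0.18, limma adjusted p = 0.0197). This call was lost without KDM6A TubKO sham mouse 2 (-0.42, 0.056), UUO mouse 3 (-0.35, 0.0719) or UUO mouse 5 (-0.42, 0.0546). In KDM6A Ctrl mice *Rxra* measured 22.3 ± 2.00 FPKM in sham and 17.7 ± 4.33 FPKM in UUO kidneys (log2 -0.35 ± 0.18, limma adjusted p = 0.094), and without UUO mouse 2 it passed (-0.47, 0.0262). *Rxrb* rose in KDM6A Ctrl mice, from 5.74, 5.05, 5.46, 6.16 and 5.87 FPKM to 7.87, 7.44, 6.72, 7.69 and 8.86 FPKM with no overlap (log2 0.39 ± 0.10, limma adjusted p = 0.00191). That rise was close to the median of all genes, 0.35, and after upper quartile rescaling it was 0.14 (limma adjusted p = 0.202). *Rxrb* in KDM6A TubKO mice measured 5.75 ± 0.394 FPKM in sham and 6.10 ± 1.21 FPKM in UUO kidneys (log2 0.06 ± 0.10, 95% interval -0.15 to 0.27), and it fell after quantile normalization (-0.39, limma adjusted p = 0.00127).

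Both PGC-1 coactivators fell with obstruction in both genotypes. *Ppargc1a*, which encodes PGC-1α, was listed at 19.4, 17.2, 14.2, 16.2 and 17.0 FPKM in KDM6A Ctrl sham and at 9.74, 10.03, 10.1, 10.6 and 11.4 FPKM in KDM6A Ctrl UUO kidneys. KDM6A TubKO mice went from 14, 16.3, 17.9, 19.0 and 14.4 FPKM to 11.9, 12.3, 12, 11.2 and 8.01 FPKM. Sham and UUO kidneys lay apart in each genotype, with falls of 0.64 ± 0.11 (limma adjusted p = 2.65e-05) and 0.53 ± 0.11 (limma adjusted p = 0.000189) on the log2 scale. *Ppargc1b*, which encodes the related PGC-1β, was lower in level and in change: it fell by 0.35 ± 0.10 in KDM6A Ctrl (2.75 ± 0.238 to 1.95 ± 0.366 FPKM, limma adjusted p = 0.0032) and by 0.26 ± 0.10 in KDM6A TubKO mice (2.66 ± 0.386 to 2.05 ± 0.340 FPKM, limma adjusted p = 0.0201), with overlap in both. The KDM6A TubKO call was lost without sham mouse 2 (-0.21, 0.0661) or UUO mouse 3 (-0.20, 0.0687).

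*Esrra*, which encodes ERRα, the receptor through which PGC-1α reaches many mitochondrial genes, fell from 22.1, 33.8, 29.6, 39.1 and 34.9 FPKM to 22.5, 24, 18.9, 24.6 and 23.2 FPKM in KDM6A Ctrl mice (log2 -0.46 ± 0.13, limma adjusted p = 0.00303). Sham mouse 1 lay inside the UUO range and the other 4 sham kidneys above it. The groups were apart in KDM6A TubKO mice, at 35.5, 37.4, 33.5, 32.5 and 27.7 FPKM in sham and 21.1, 24.8, 17.7, 19.1 and 20.4 FPKM in UUO kidneys (-0.67 ± 0.13, limma adjusted p = 8.46e-05). *Nr1h3*, which encodes LXRα, a receptor for oxidized cholesterol, fell from between 12.2 and 17.0 FPKM to between 6.52 and 9.62 FPKM in KDM6A Ctrl (-0.66 ± 0.10, limma adjusted p = 1.09e-05) and from between 12.3 and 14.4 FPKM to between 6.09 and 8.60 FPKM in KDM6A TubKO mice (-0.75 ± 0.10, limma adjusted p = 1.86e-06). No obstructed kidney reached a sham kidney of its genotype.

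**Figure D2:**
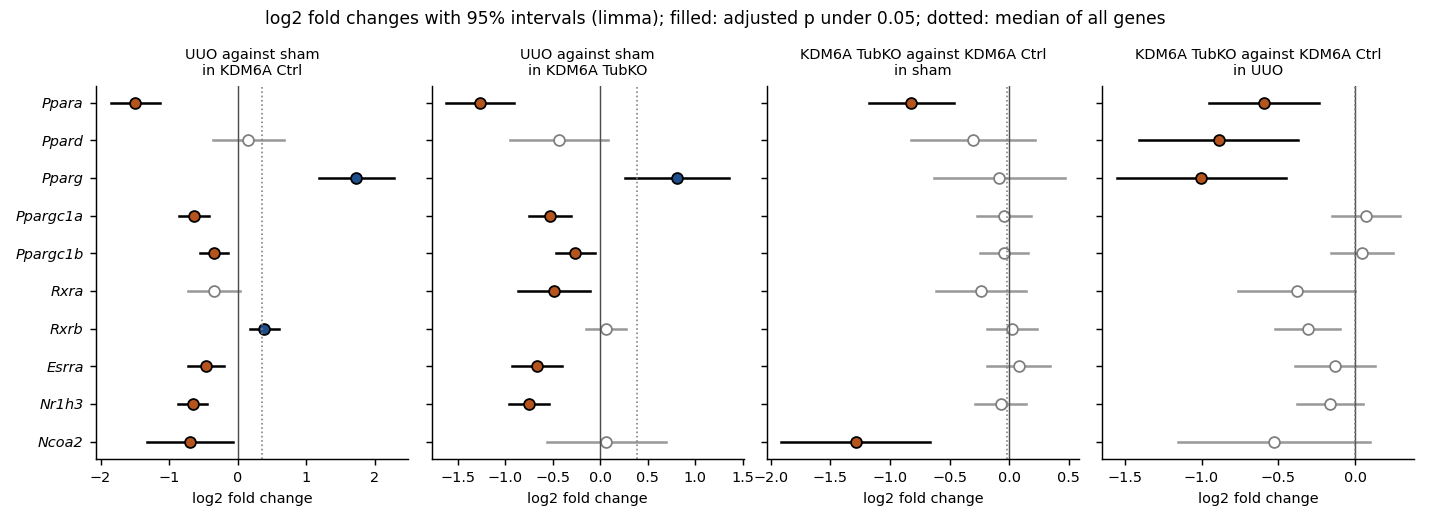
Log2 fold change of each member on the log2(FPKM + 1) scale with its 95% interval from limma, for UUO against sham in each genotype and for KDM6A TubKO against KDM6A Ctrl after each surgery; filled points passed an adjusted p of 0.05. *Ppara*, *Ppargc1a*, *Esrra* and *Nr1h3* lay below 0 in both surgery comparisons, and in sham kidneys *Ppara* (-0.82) and *Ncoa2* (-1.29) were the members that passed between genotypes.

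The next comparison asked whether deletion of *Kdm6a* in the tubule changed these genes without injury. In sham kidneys 2 of the 10 members were lower in KDM6A TubKO mice, *Ppara* and *Ncoa2*, and none was higher, where 3.89% of all genes were lower and 1.94% higher. *Ppara*, whose values per kidney are given above, had a mean of 8.08 ± 1.36 FPKM in KDM6A Ctrl and 4.19 ± 1.14 FPKM in KDM6A TubKO sham kidneys. The highest KDM6A TubKO sham kidney (5.76 FPKM) was below the lowest KDM6A Ctrl one (6.05 FPKM), as was so for 4.88% of all genes. The difference was -0.82 ± 0.17 on the log2 scale (95% interval -1.18 to -0.46, limma adjusted p = 0.0135), and it stayed called in all 20 fits that each left out 1 mouse.

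*Ncoa2* encodes a coactivator of the p160 family (also called TIF2 or GRIP1) that nuclear receptors recruit once a ligand is bound. KDM6A Ctrl sham kidneys had 3.41, 4.12, 3.83, 3.32 and 3.70 FPKM, close to each other. KDM6A TubKO sham kidneys had 0.635, 0.929, 1.19, 1.09 and 0.768 FPKM, all below them. The difference was -1.29 ± 0.30 on the log2 scale (limma adjusted p = 0.0214), which ranked 12 from the lowest of 13842 genes. The call was lost without KDM6A TubKO sham mouse 1 (-1.23, limma adjusted p = 0.0617) or mouse 5 (-1.26, 0.0607), and with each library's trend on transcript length removed (-1.14, 0.0523). That trend differed between these groups: its slope, in log2 FPKM per log2 of length, was -0.0056 to 0.0760 in KDM6A Ctrl sham and -0.101 to -0.0076 in KDM6A TubKO sham kidneys, whose 2 lowest slopes belonged to mice 1 and 5. Whether these slopes and the lost calls are linked was not tested.

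In obstructed kidneys *Ncoa2* fell into separate levels within groups. KDM6A Ctrl UUO mice had 0.968, 1.02, 4.35, 3.76 and 0.962 FPKM, so mice 3 and 4 were at the level of the KDM6A Ctrl sham kidneys and mice 1, 2 and 5 at that of the KDM6A TubKO ones. KDM6A TubKO UUO mice had 0.574, 0.677, 0.693, 3.54 and 0.578 FPKM, with mouse 4 alone high. *Ncoa2* fell with UUO in KDM6A Ctrl mice by 0.70 ± 0.30 (limma adjusted p = 0.0434), a call lost in 9 of the 20 fits that left out 1 mouse, each KDM6A Ctrl sham mouse and UUO mice 1, 2 and 5 among them (-0.92 to -0.56 over all 20, adjusted p up to 0.118). In KDM6A TubKO mice its difference was 0.06 ± 0.30 (95% interval -0.56 to 0.69) and turned to -0.23 without mouse 4.

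The levels of *Ncoa2* followed which of its transcripts was listed, and the exon that tells them apart is shown for that reason. Ncoa2-201 holds a coding exon of 207 bases (GRCm38 chr1:13164896-13165102, minus strand) that Ncoa2-202 and Ncoa2-203 skip, and it ends in a short last exon of 298 bases, where Ncoa2-202 has 3614 and Ncoa2-203 has 3668 bases. The skipped exon is in capitals, read 5′ to 3′ from the GENCODE transcript, with 15 bases of each neighbouring exon in lower case.
Ncoa2-201 exon: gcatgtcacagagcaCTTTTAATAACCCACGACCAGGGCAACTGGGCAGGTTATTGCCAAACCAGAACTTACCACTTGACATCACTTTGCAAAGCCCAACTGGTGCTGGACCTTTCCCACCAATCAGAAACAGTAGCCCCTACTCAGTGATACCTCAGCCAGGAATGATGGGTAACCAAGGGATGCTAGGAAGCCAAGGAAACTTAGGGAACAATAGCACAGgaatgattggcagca
Ncoa2-202 was listed at 5.56, 7.0, 6.61, 5.83 and 6.02 FPKM in KDM6A Ctrl sham kidneys, at 7.46 and 6.41 FPKM in KDM6A Ctrl UUO mice 3 and 4, and at 0 in KDM6A Ctrl UUO mice 1, 2 and 5 and in all 10 KDM6A TubKO kidneys. Ncoa2-203, which skips the same exon and starts at another first exon, was listed at 6.55 FPKM in KDM6A TubKO UUO mouse 4, where Ncoa2-201 was listed at 0, and at 0.409 FPKM or less in every other kidney. So the 8 kidneys with over 3 FPKM of the gene were the 8 in which a transcript with a long last exon was listed at over 5 FPKM. Ncoa2-201 itself went the other way: it was listed at 1.02, 1.32, 0.954, 0.556 and 1.69 FPKM in KDM6A Ctrl sham and at 1.60, 2.59, 3.31, 3.23 and 1.91 FPKM in KDM6A TubKO sham kidneys, with overlap.

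Between sham groups Ncoa2-202 passed the transcript test (limma adjusted p = 0.014 over 26228 transcripts), with a difference of -2.84 on the log2(FPKM + 1) scale that the pseudocount sets, since 1 group is listed at 0; 0.438% of all transcripts were lower and 2.75% were apart and lower. It held 84.1% ± 4.22 of the summed transcript FPKM of the gene in KDM6A Ctrl sham kidneys (SD, n = 5) and 0% in each KDM6A TubKO sham kidney (limma adjusted p = 0.0254 over 18660 transcripts, where 0.129% had a lower share). This share call was lost in 7 of the 20 fits that left out 1 mouse, those without KDM6A Ctrl sham mice 1, 2 or 3 or KDM6A TubKO sham mice 1, 2, 3 or 5 (adjusted p up to 0.0661). A gene FPKM is built from the transcript estimates and their lengths, so the gene value of *Ncoa2* and these assignments are not separate evidence. Whether reads were assigned to a transcript model in some libraries and not in others, or the transcript itself differed, was not tested.

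**Figure D3:**
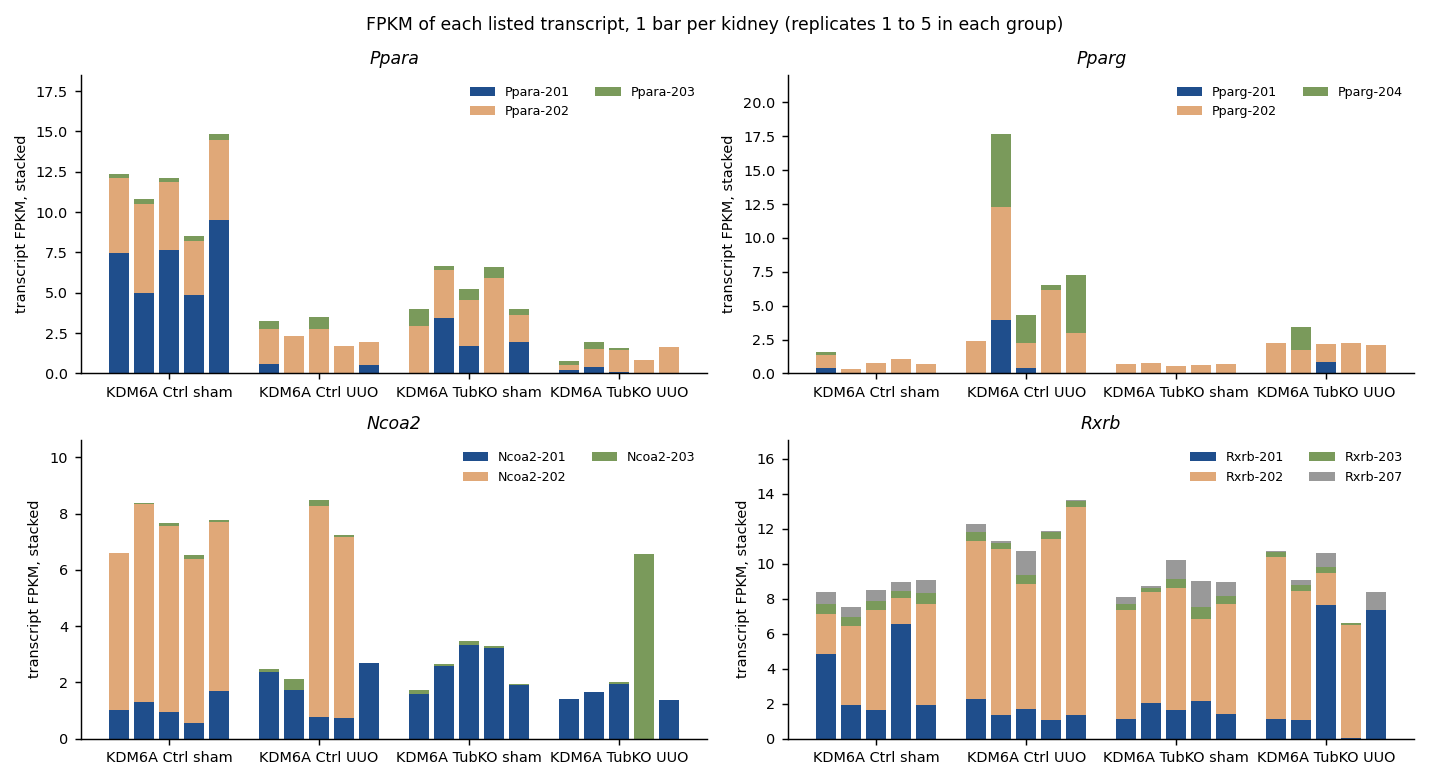
FPKM of the listed transcripts of *Ppara*, *Pparg*, *Ncoa2* and *Rxrb*, stacked in 1 bar for each of the 20 kidneys, mice 1 to 5 from left to right within a group. Ncoa2-202 was listed at 5.56 to 7.0 FPKM in KDM6A Ctrl sham kidneys and at 0 in all 10 KDM6A TubKO kidneys, and Ppara-201 at 4.83 to 9.50 FPKM in KDM6A Ctrl sham kidneys and at 0.576 FPKM or less in every UUO kidney.

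The other 8 members did not pass between sham groups, and their intervals give how large a difference these kidneys leave possible. *Ppargc1a* was at 16.8 ± 1.88 and 16.3 ± 2.16 FPKM (log2 -0.04, 95% interval -0.27 to 0.18, limma adjusted p = 0.891). *Esrra* differed by 0.08 (-0.18 to 0.34), *Nr1h3* by -0.07 (-0.29 to 0.14), *Rxrb* by 0.02 (-0.19 to 0.23) and *Ppargc1b* by -0.04 (-0.25 to 0.16). The intervals were wider for *Rxra* (-0.24, -0.61 to 0.14), *Ppard* (-0.30, -0.82 to 0.21) and *Pparg* (-0.08, -0.63 to 0.47).

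After obstruction all 3 PPARs were lower in KDM6A TubKO than in KDM6A Ctrl kidneys and no other member was called, where 3.07% of all genes were lower and 2.58% higher. *Ppara* differed by -0.59 ± 0.17 (2.23 ± 0.603 against 1.15 ± 0.452 FPKM, limma adjusted p = 0.0486). *Ppard* differed by -0.89 ± 0.25 (4.51 ± 0.612 against 2.27 ± 1.61 FPKM, limma adjusted p = 0.0424). *Pparg* differed by -1.003 ± 0.263 (5.22 ± 3.93 against 1.71 ± 0.331 FPKM, limma adjusted p = 0.0349). All 3 pairs of groups overlapped: for *Ppara* KDM6A Ctrl UUO mouse 4 (1.57 FPKM) was below KDM6A TubKO UUO mouse 5 (1.58 FPKM), for *Ppard* KDM6A TubKO UUO mouse 2 was inside the control range, and for *Pparg* KDM6A Ctrl UUO mouse 1 (1.75 FPKM) was below KDM6A TubKO UUO mouse 2 (2.29 FPKM). In the same comparison 5 of 14 macrophage and monocyte markers (median 0.36) and 2 of 7 endothelium markers (median 0.41) were higher in KDM6A TubKO kidneys. The endothelium markers summed to 42.4 to 61.4 FPKM in KDM6A Ctrl UUO and 61.1 to 75.8 FPKM in KDM6A TubKO UUO kidneys, and the part of these cells in the PPAR values was not tested. With macrophage markers as a covariate the differences were -0.46 for *Ppara*, -0.79 for *Ppard* and -0.93 for *Pparg* (limma adjusted p = 0.223, 0.18 and 0.148), and over all genes 22 were called higher and 75 lower, from 357 and 425.

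These 3 calls depended on the fit and on single kidneys. In a fit of only the 2 obstructed groups the adjusted p-values were 0.127 for *Ppara*, 0.149 for *Ppard* and 0.155 for *Pparg*, and 1 gene in all was called. Leaving out 1 mouse at a time ended the *Ppara* call in 14 of 20 fits (log2 -0.67 to -0.49, limma adjusted p up to 0.126), the *Ppard* call in 12 (-1.10 to -0.71, up to 0.0977) and the *Pparg* call in 6 (-1.25 to -0.69, up to 0.079), where the value -0.69 came without KDM6A Ctrl UUO mouse 2. With the mouse number series in the fit *Ppara* differed by -0.59 and was not called (limma adjusted p = 0.0522), while the calls of *Ppard* (0.0474) and *Pparg* (0.0395) remained. Of the members not called, *Rxrb* differed by -0.31 ± 0.10 (limma adjusted p = 0.0695), *Rxra* by -0.38 ± 0.18 (0.2) and *Ncoa2* by -0.53 ± 0.30 (0.285). *Ppargc1a* was at 10.4 ± 0.677 and 11.1 ± 1.75 FPKM (log2 0.07, 95% interval -0.15 to 0.29).

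Averaged over both surgeries, *Ppara* was lower in KDM6A TubKO kidneys by 0.71 ± 0.12 on the log2 scale (limma adjusted p = 0.00292), *Ncoa2* by 0.91 ± 0.21 (0.0121) and *Ppard* by 0.60 ± 0.17 (0.0342), with 7.49% of all genes lower and 3.95% higher. The *Ppard* call was lost in 7 of the 20 fits that left out 1 mouse (-0.70 to -0.51, adjusted p up to 0.0644) and with the mouse number series as a covariate (-0.59, 0.0549). *Pparg* had a difference of -0.54 ± 0.19 and did not pass (0.0631). For none of the members did the effect of genotype differ detectably between sham and UUO: the interaction called 0 of 10 members and 4 of 13842 genes (0.0289%), while *Pparg* and *Rxrb* had unadjusted p-values under 0.05. Such an unadjusted limma p was found for 2171 of the 13842 genes, so it is common here. For *Ppara* the interaction was 0.23 (95% interval -0.28 to 0.74), for *Ppard* -0.58 (-1.32 to 0.15) and for *Ncoa2* 0.76 (-0.12 to 1.64). The comparisons share kidneys (KDM6A Ctrl sham enters both the obstruction and the sham genotype comparison), so a chance value in 1 group moves both.

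Markers of the urothelium, the lining of the renal pelvis and ureter, were highest in the same kidney as *Pparg*. The summed FPKM of 8 urothelium markers was 43.2, 919, 179, 415 and 239 in KDM6A Ctrl UUO mice 1 to 5 and 48.5, 112, 17.5, 28.8 and 74.4 in KDM6A TubKO UUO mice, against 18.8 to 67.6 in KDM6A Ctrl sham and 5.22 to 30.3 in KDM6A TubKO sham kidneys. KDM6A Ctrl UUO mouse 2, highest for *Pparg*, was highest for these markers, and mouse 1, lowest for *Pparg* in that group, was lowest. The keratin gene *Krt5* was at 6.32, 198, 42.6, 74.6 and 45.2 FPKM in the same 5 KDM6A Ctrl UUO kidneys, and none of the 8 markers was at 0 in all kidneys of a group. All 8 rose in KDM6A Ctrl UUO, 2 of 8 rose in KDM6A TubKO UUO, and 5 of 8 were lower in KDM6A TubKO than in KDM6A Ctrl UUO kidneys (median -2.20). Of all genes 56.7% and 57.9% rose with UUO in these genotypes, and 3.07% were lower between genotypes. With the mean of these markers as a covariate, an alternative chosen after seeing the data, the genotype difference of *Pparg* in UUO kidneys was -0.13 (limma adjusted p = 0.755), that of *Ppara* -0.62 (0.219) and that of *Ppard* -0.70 (0.313). Over all genes the 357 higher and 425 lower calls of this comparison became 10 and 14 with this covariate, so the loss of a call is common to most genes.

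Perirenal fat is another tissue rich in *Pparg*. The summed FPKM of its markers was 18.9, 55.2, 10.5, 31.9 and 347 in KDM6A Ctrl UUO mice 1 to 5, with *Cfd* at 166 and *Adipoq* at 20.5 FPKM in mouse 5, while *Pparg* was highest in mouse 2. None of the 8 measured fat markers was called by limma in any comparison of 2 groups, and 0 had an unadjusted p under 0.05, and with these markers as a covariate the 3 genotype calls in UUO kidneys remained. Whether the *Pparg* RNA of these kidneys came from urothelium, from fat or from other cells was not tested. By likeness over the 20 kidneys, among the 11979 genes that averaged 1 FPKM or more, the genes whose log2 level followed *Pparg* most closely were *Fxyd3* (Pearson r = 0.978), *Anxa8* (0.972) and *Postn* (0.971). After each group mean was removed they were *Foxa1* (0.954), *Anxa8* (0.932) and *Rab27b* (0.932), over the residuals of all 20 kidneys, and *Anxa8* was the 1 gene named in both. These r are descriptions of 20 points that share libraries and surgery.

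**Figure D4:**
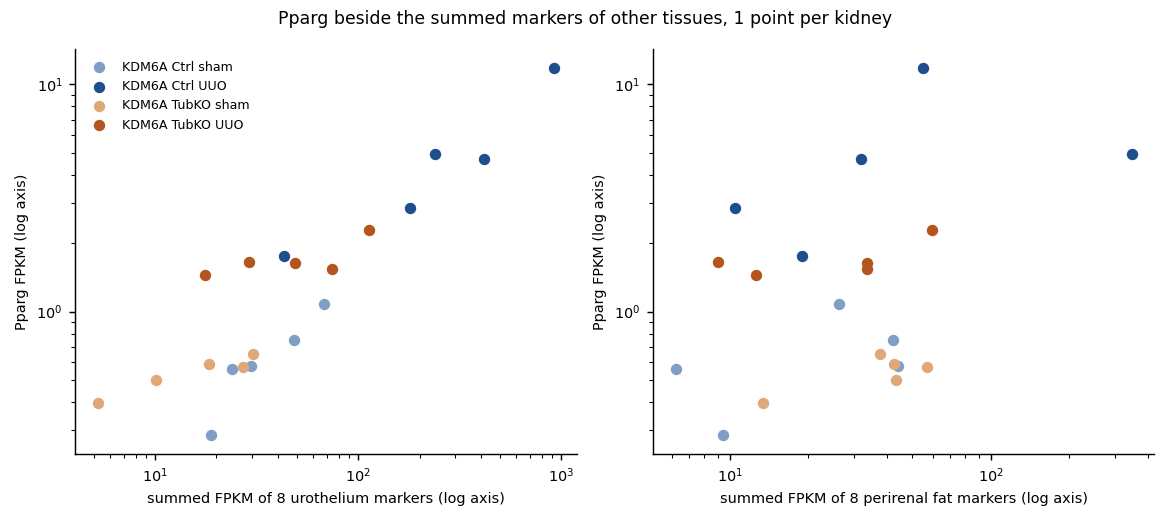
FPKM of *Pparg* in each of the 20 kidneys against the summed FPKM of urothelium markers and of perirenal fat markers, both axes on a log scale, coloured by group. KDM6A Ctrl UUO mouse 2 has the highest *Pparg* (11.8 FPKM) and the highest urothelium sum (919), while the highest fat sum (347) belongs to KDM6A Ctrl UUO mouse 5.

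For *Ppara* the same measure over the 20 kidneys gave *Snx9* (r = 0.981), *Hspa9*, a mitochondrial chaperone (0.971), and *Cul3* (0.969), and for *Ppargc1a* it gave *Rap1gap* (0.933), the muscle-type phosphofructokinase gene *Pfkm* (0.929) and *Oxgr1* (0.923). *Nr1h3* was followed by *Lap3* (0.963), *Pcca* (0.96) and *Nit1* (0.959). *Esrra* was followed by *Prss8* (0.941), *Nepn* (0.92) and *Hes6* (0.916). After group means were removed the highest r were lower for these 4, at 0.885 (*Heatr5b*), 0.84 (*Zfp61*), 0.849 (*Cd302*) and 0.864 (*Fetub*).

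*Pparg* has several starts, and the 3 listed transcripts use different ones. Pparg-202 was listed in all 20 kidneys and rose with UUO, at 0.948, 0.315, 0.738, 1.04 and 0.699 FPKM in KDM6A Ctrl sham and 2.43, 8.30, 1.91, 6.14 and 3.01 FPKM in KDM6A Ctrl UUO kidneys. Pparg-204 was listed at 0, 5.37, 2.02, 0.421 and 4.25 FPKM in KDM6A Ctrl UUO mice, at 0.268 FPKM in KDM6A Ctrl sham mouse 1 and 1.72 FPKM in KDM6A TubKO UUO mouse 2, and at 0 in the other 13 kidneys. Pparg-201, the only 1 of the 3 that codes for the longer PPARγ2, the form typical of fat, was listed at 3.98 and 0.370 FPKM in KDM6A Ctrl UUO mice 2 and 3, at 0.388 FPKM in KDM6A Ctrl sham mouse 1, at 0.830 FPKM in KDM6A TubKO UUO mouse 3 and at 0 in the other 16. Averaged over genotypes, UUO raised Pparg-202 by 1.15 ± 0.18 (limma adjusted p = 2.13e-05) and Pparg-204 by 0.83 ± 0.29 (limma adjusted p = 0.0222).

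Pparg-201 has 90 coding bases that Pparg-202 does not code, of which 82 lie in its first exon (GRCm38 chr6:115422111-115422192, plus strand). They are shown because they are what tells PPARγ2 from the common form in these transcript values, and the capitals mark the start codon.
Pparg-201 start of coding: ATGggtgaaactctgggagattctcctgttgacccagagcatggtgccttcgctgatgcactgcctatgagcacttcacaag
The starts themselves differ in base composition. RefSeq gives *Pparg* 3 promoters, printed from 250 bases before to 50 bases after the start (GRCm38.p6, plus strand), at chr6:115360894-115361193 near Pparg-202, chr6:115362099-115362398 near Pparg-204 and chr6:115421816-115422115 at Pparg-201. Capitals mark CCAAT and GGGCGG on either strand, which do not overlap here.
Pparg promoter at 115360894: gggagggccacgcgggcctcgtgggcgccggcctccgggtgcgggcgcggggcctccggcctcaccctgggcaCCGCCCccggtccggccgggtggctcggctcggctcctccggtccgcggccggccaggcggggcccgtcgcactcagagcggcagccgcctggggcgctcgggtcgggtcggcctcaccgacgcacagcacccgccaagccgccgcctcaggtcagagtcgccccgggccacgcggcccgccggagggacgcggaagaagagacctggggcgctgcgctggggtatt
Pparg promoter at 115362099: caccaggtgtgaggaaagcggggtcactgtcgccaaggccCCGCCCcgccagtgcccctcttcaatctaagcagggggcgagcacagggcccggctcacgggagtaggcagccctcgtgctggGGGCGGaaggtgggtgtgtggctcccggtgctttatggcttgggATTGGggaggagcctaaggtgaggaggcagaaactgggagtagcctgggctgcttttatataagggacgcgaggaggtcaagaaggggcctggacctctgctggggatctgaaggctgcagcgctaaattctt
Pparg promoter at 115421816: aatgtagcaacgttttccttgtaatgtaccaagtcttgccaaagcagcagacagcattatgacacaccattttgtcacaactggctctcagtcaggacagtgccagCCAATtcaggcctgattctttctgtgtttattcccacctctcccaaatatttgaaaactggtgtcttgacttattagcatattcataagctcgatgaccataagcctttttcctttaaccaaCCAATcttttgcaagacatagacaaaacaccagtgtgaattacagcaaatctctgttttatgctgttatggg
The GC content was 80.3%, 62.7% and 40.3% in this order, and 99.1%, 76.9% and 10.7% of all 32851 RefSeq promoters had less. GGGCGG was found in those near Pparg-202 and Pparg-204 and CCAAT in those near Pparg-204 and Pparg-201, where 35.7% and 37.4% of all promoters held these letters. AGGTCA, the core letters that nuclear receptors bind, was in those near Pparg-202 and Pparg-204 (16.3% of all promoters). Over the 13 promoters of the 8 members with an entry, AGGTCA was found in 3 (those of *Pparg* and *Rxra*), GGGCGG in 8 and CCAAT in 3, and neither the longer ERR element TCAAGGTCA nor the direct repeat of AGGTCA with 1 base between, which a PPAR and RXR pair binds, was found in these windows (0.423% and 0.0396% of all). *Ncoa2* and *Ppargc1b* had no entry. The *Ppargc1a* promoter lay 13803 bases from the start of Ppargc1a-203, its listed transcript, so the start of that transcript was not searched. The *Rxra* promoter that held AGGTCA lay 32091 bases from the start of Rxra-201.

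*Ppara* transcripts changed in proportion as well as in level with UUO in KDM6A Ctrl mice. Ppara-201 and Ppara-202 code for the same protein over 1407 bases and differ in first exon and in the length of the last, 738 bases against 1809. Ppara-201 was listed at 7.45, 5.01, 7.67, 4.83 and 9.50 FPKM in KDM6A Ctrl sham and at 0.576, 0, 0.0181, 0 and 0.505 FPKM in KDM6A Ctrl UUO kidneys. KDM6A TubKO mice had it at 0.0102, 3.42, 1.70, 0.00834 and 1.92 FPKM in sham and at 0.226, 0.402, 0.117, 0 and 0 FPKM in UUO kidneys. Every KDM6A Ctrl sham kidney was above every other kidney, where 7.06% of all transcripts were apart and lower in KDM6A Ctrl UUO and 2.75% in KDM6A TubKO sham kidneys. Ppara-202 fell less, from 4.64, 5.49, 4.19, 3.36 and 4.96 FPKM to 2.16, 2.30, 2.71, 1.71 and 1.47 FPKM in KDM6A Ctrl mice.

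The share of Ppara-201 in the summed FPKM of *Ppara* was 58.1% ± 7.24 in KDM6A Ctrl sham and 8.76% ± 12.1 in KDM6A Ctrl UUO kidneys (SD, n = 5), a fall of 49.4 percentage points (limma adjusted p = 0.011), where 1.62% of all shares fell. It was 26.5% ± 25 in KDM6A TubKO sham and 11.5% ± 13.2 in KDM6A TubKO UUO kidneys, and neither that difference (-14.9 percentage points, limma adjusted p = 0.469) nor the one between sham groups (-31.7, limma adjusted p = 0.268) passed. Between sham groups the FPKM of Ppara-201 was lower in KDM6A TubKO mice (-1.91 ± 0.34 on the log2 scale, limma adjusted p = 0.0145), and with a pseudocount of 0.1 this call was lost (-3.30, 0.111). Averaged over both surgeries it was lower by 0.99 ± 0.24 (0.0363, with 2.18% of transcripts lower), a call lost in 10 of the 20 fits that left out 1 mouse (adjusted p up to 0.0645).

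Of the 22 transcripts, 8 fell and 2 rose with UUO averaged over genotypes, where 14.5% of all transcripts fell and 34.5% rose. Besides those of *Ppara* and *Pparg* these were Ppargc1a-203 (-0.58 ± 0.09), Ppargc1b-202 (-0.32 ± 0.08), Rxra-201 (-0.42 ± 0.14), Esrra-201 (-0.56 ± 0.09), Nr1h3-201 (-0.89 ± 0.20) and Nr1h3-202 (-0.72 ± 0.10), with limma adjusted p-values of at most 0.0148. Shares of 3 passed: Ppara-201 fell by 32.2 percentage points, Ppara-202 rose by 29.4 and Rxrb-203 fell by 2.70 (limma adjusted p = 0.00665, 0.035 and 0.0316), where 4.95% of all shares fell and 4.74% rose. The Ppara-202 call was lost in 11 and the Rxrb-203 call in 8 of the 20 fits that left out 1 mouse (adjusted p up to 0.0654 and 0.0557).

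*Rxrb* transcripts were split among kidneys of 1 group. Rxrb-201 was listed at 4.86, 1.95, 1.66, 6.56 and 1.94 FPKM in KDM6A Ctrl sham and at 1.11, 1.09, 7.66, 0.0343 and 7.35 FPKM in KDM6A TubKO UUO kidneys, and Rxrb-202 at 2.23, 4.48, 5.70, 1.49 and 5.76 FPKM and at 9.28, 7.33, 1.77, 6.44 and 0 FPKM in the same mice. In each of these groups the kidneys high in Rxrb-201 were those low in Rxrb-202. Rxrb-201 has 342 coding bases that Rxrb-202 lacks, 12 of them at an internal junction (GRCm38 chr17:34036861-34036896, plus strand), shown because this short difference is part of what divides their values, with the 12 bases in capitals and the 24 shared bases after them in lower case.
Rxrb-201 stretch: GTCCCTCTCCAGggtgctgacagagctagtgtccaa
*Ppard* had 1 listed transcript, Ppard-201, at 1.12, 6.13, 0.1, 5.14 and 0.082 FPKM in KDM6A TubKO UUO mice 1 to 5, the same split as its gene values. It was above the gene value in mice 2 and 4 (4.28 and 3.68 FPKM) and below it in mice 1, 3 and 5 (1.65, 0.791 and 0.941 FPKM). In KDM6A Ctrl UUO kidneys the transcript averaged 6.39 and the gene 4.51 FPKM. Whether reads in mice 1, 3 and 5 were assigned to transcripts that are not listed was not tested, and the gene and transcript values are not separate evidence.

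Most targets of PPARα, in a list drawn from general knowledge, fell with obstruction. Of 34 PPARα targets 28 fell and 1 rose in KDM6A Ctrl UUO kidneys (median log2 fold change -0.86, against 0.35 over all genes), and 25 fell and 3 rose in KDM6A TubKO UUO kidneys (median -0.91, against 0.39). Among all genes 15.1% fell and 56.7% rose in KDM6A Ctrl mice, and 16.7% fell and 57.9% rose in KDM6A TubKO mice. *Ehhadh*, an enzyme of peroxisomal fatty acid oxidation, went from 329 ± 124 to 69.6 ± 27.4 FPKM in KDM6A Ctrl (-2.28 ± 0.36, limma adjusted p = 1.71e-05) and from 233 ± 35.7 to 39.7 ± 23.2 FPKM in KDM6A TubKO mice. *Cyp4a10*, a fatty acid hydroxylase, fell by 1.90 ± 0.46 in KDM6A Ctrl mice (0.00114). *Plin2*, which coats lipid droplets, rose by 0.66 ± 0.26 (0.0322) in KDM6A Ctrl and by 0.94 ± 0.26 (0.00325) in KDM6A TubKO mice. *Pdk4*, which shuts glucose carbon out of the mitochondrion, rose in KDM6A TubKO mice (3.92 ± 0.807 to 26.6 ± 15 FPKM, 2.27 ± 0.61, limma adjusted p = 0.00253), and its KDM6A Ctrl sham value varied widely (31.3 ± 40.2 FPKM).

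Between genotypes none of the 34 PPARα targets passed in sham (median -0.25) or in UUO kidneys (median -0.20), by limma. An unadjusted limma p under 0.05 was found for 8 and 5 of them, and for 2974 and 3407 of all 13842 genes. These counts say nothing particular of the list. Averaged over surgeries 2 of the 34 were lower, *Cpt1a*, the gate of fatty acid entry into mitochondria (-0.31 ± 0.09, limma adjusted p = 0.0334), and *Hadha*, an enzyme of mitochondrial β-oxidation (-0.25 ± 0.07, 0.0345). Over all genes 7.49% were lower in this comparison, so the count of 2 is not above the share of all genes. *Cpt1a* was at 141 ± 16.4 FPKM in KDM6A Ctrl sham and 105 ± 11.1 in KDM6A TubKO sham kidneys, and at 58 ± 7.79 and 51.1 ± 11 FPKM after UUO.

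Targets of PGC-1 and ERR also mostly fell: 16 of 20 fell and 2 rose in each genotype (median -0.46 in KDM6A Ctrl and -0.68 in KDM6A TubKO). Over all genes 15.1% fell and 56.7% rose in KDM6A Ctrl mice (median 0.35). In KDM6A TubKO mice 16.7% of all genes fell and 57.9% rose (median 0.39). *Atp5b*, a subunit of ATP synthase, went from 364 ± 12.8 to 162.9 ± 24.2 FPKM (-1.17 ± 0.13, limma adjusted p = 1.55e-07), and *Ndufs1* of complex I fell by 1.04 ± 0.10 (2.43e-08) in KDM6A Ctrl mice. The 2 that rose were *Nrf1* and *Gabpb1*, factors that act on nuclear genes for mitochondrial proteins (0.30 ± 0.12 and 0.47 ± 0.18 in KDM6A Ctrl mice). Between genotypes *Cox5b* was higher in KDM6A TubKO sham kidneys (0.36 ± 0.08, 0.0182) and *Atp5b* lower in KDM6A TubKO UUO kidneys (-0.52 ± 0.13, 0.0288), and the other 19 did not pass in each comparison. Of all genes 1.94% were higher in KDM6A TubKO sham and 3.07% lower in KDM6A TubKO UUO kidneys.

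Targets of PPARγ and of LXRα moved in both directions. Of 18 PPARγ targets 4 rose and 4 fell in KDM6A Ctrl, and 4 rose and 5 fell in KDM6A TubKO UUO kidneys. The shares of all genes that fell were 15.1% and 16.7%. *Adipoq*, *Plin1*, *Cidec*, *Cidea*, *Cfd* and *Retn* of this list are also perirenal fat markers, none of which was called in these comparisons. *Fabp4*, a fatty acid carrier of fat cells, macrophages and endothelium, rose by 1.47 ± 0.26 (limma adjusted p = 4.46e-05) in KDM6A Ctrl mice, while *Pck1*, an enzyme of glucose synthesis made in large amounts by the proximal tubule, fell by 2.25 ± 0.46 (0.000253). Of 13 LXR targets 9 rose and 2 fell in KDM6A Ctrl and 8 rose and 4 fell in KDM6A TubKO UUO kidneys, near the shares of all genes that rose (56.7% and 57.9%), so these counts say nothing particular of the list. The largest rises were those of *Apoe* (35.4 ± 9.93 to 411 ± 98.9 FPKM, 3.50 ± 0.28, limma adjusted p = 2.98e-09), *Arl4c* (2.70 ± 0.12, 7.41e-12) and *Pltp* (2.49 ± 0.22, 7.85e-09), and *Apoe* is also a gene of macrophages, whose markers rose in the same kidneys. *Fasn*, fatty acid synthase, and *Lpcat3*, which builds membrane phospholipids, were the LXR targets that were lower in KDM6A TubKO than in KDM6A Ctrl UUO kidneys (-0.64 ± 0.09, limma adjusted p = 0.00296, and -0.48 ± 0.13, 0.0369). In this comparison 3.07% of all genes were lower.

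**Figure D5:**
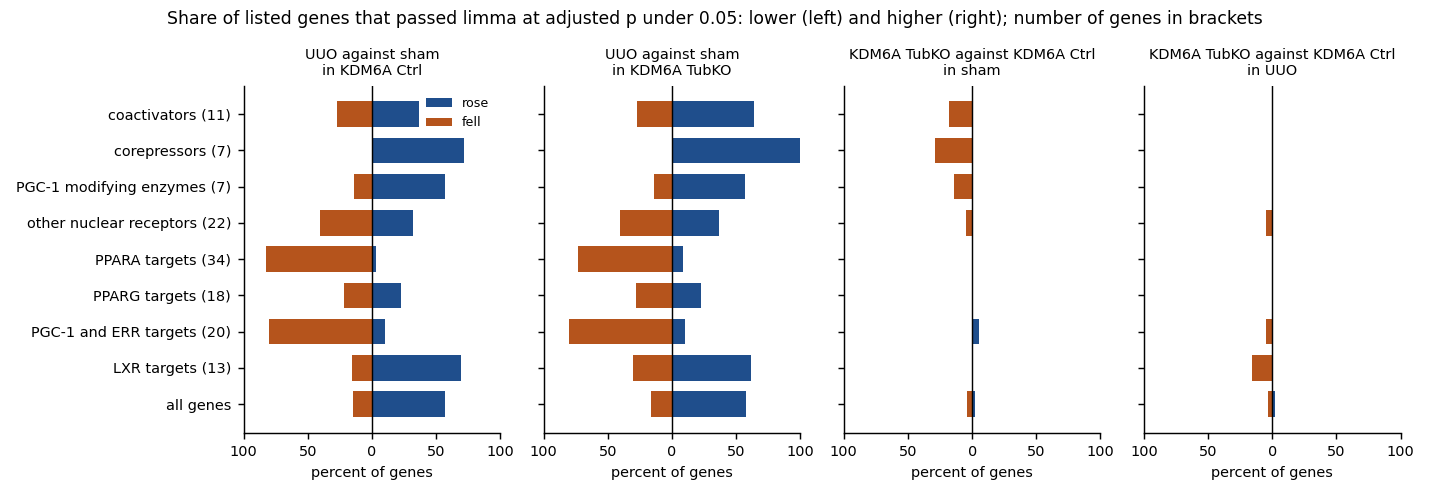
Percent of the genes of each partner and target list (number of genes in brackets) that fell (left) or rose (right) at an adjusted p under 0.05, in 4 comparisons, with all genes as the bottom bar. In KDM6A Ctrl mice 28 of 34 PPARα targets fell with UUO against 15.1% of all genes, and 9 of 13 LXR targets rose against 56.7%, while the genotype panels hold few calls.

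The partners of these receptors were also measured. Their counts are to be read against the 56.7% of all genes that rose with UUO in KDM6A Ctrl mice and the 57.9% that rose in KDM6A TubKO mice. The shares of all genes that fell were 15.1% and 16.7%. Among 11 other coactivators 4 rose and 3 fell in KDM6A Ctrl and 7 rose and 3 fell in KDM6A TubKO UUO kidneys. *Pprc1*, the remaining member of the PGC-1 family, rose by 1.08 ± 0.11 (limma adjusted p = 5.76e-08) in KDM6A Ctrl mice, while *Perm1*, a PGC-1 and ERR partner of muscle, fell by 0.91 ± 0.13 (5.99e-06) and *Lpin1*, which works with PGC-1α and PPARα in liver, by 1.70 ± 0.34 (0.000164). *Ncoa1*, a relative of *Ncoa2*, fell by 0.92 ± 0.19 (0.00034). In sham kidneys *Ncoa6* (-0.37 ± 0.09, 0.0276) and the acetyltransferase gene *Ep300* (-0.27 ± 0.07, 0.0363) were the 2 of 11 that were lower in KDM6A TubKO mice. Over all genes 3.89% were lower and 1.94% higher in that comparison.

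Of 7 corepressors, which keep receptors without ligand silent, 5 rose with UUO in control mice and 7 in KDM6A TubKO mice, where 56.7% and 57.9% of all genes rose. *Nrip1*, which encodes RIP140, a corepressor of metabolic nuclear receptors, rose by 0.56 ± 0.08 (limma adjusted p = 3e-06) and by 0.76 ± 0.08 (5.09e-08), and in sham kidneys it was lower in KDM6A TubKO mice (3.79 ± 0.3 against 2.79 ± 0.49 FPKM, -0.34 ± 0.08, 0.0199), as was *Tbl1x*, part of the NCoR complex (-0.41 ± 0.10, 0.0245). Between sham groups 3.89% of all genes were lower in KDM6A TubKO mice. Of 7 enzymes that modify PGC-1, 4 rose and 1 fell in each genotype, which is close to the share of all genes. The 1 that fell was *Prkaa2*, the catalytic α2 subunit of AMPK, which phosphorylates PGC-1α (26.8 ± 1.69 to 13.4 ± 1.98 FPKM, -0.96 ± 0.12, 9.97e-07, in KDM6A Ctrl mice), and it was also lower in KDM6A TubKO than in KDM6A Ctrl sham kidneys (-0.46 ± 0.12, 0.036).

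Of 22 other nuclear receptors 7 rose and 9 fell in KDM6A Ctrl and 8 rose and 9 fell in KDM6A TubKO UUO kidneys. *Nr1h4*, the bile acid receptor FXR, fell by 1.28 ± 0.19 (limma adjusted p = 8.85e-06), *Hnf4a*, a master regulator of the proximal tubule, by 1.15 ± 0.14 (6.14e-07) and *Vdr*, the vitamin D receptor, by 1.14 ± 0.15 (2.37e-06) in KDM6A Ctrl mice. *Rarg*, a retinoic acid receptor that also pairs with RXR, rose by 1.59 ± 0.15 (2.28e-08). Between genotypes *Rora* was lower in KDM6A TubKO sham kidneys (-0.23 ± 0.06, 0.0335) and *Hnf4a* in KDM6A TubKO UUO kidneys (66.4 ± 9.31 against 48 ± 15.6 FPKM, -0.50 ± 0.14, 0.0446), and 21 of 22 did not pass in each. Of all genes 3.89% were lower in KDM6A TubKO sham and 3.07% in KDM6A TubKO UUO kidneys.

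For genes near the median the direction with obstruction depends on scaling. In KDM6A Ctrl mice the median of all genes shifted by 0.35 on the log2 scale as deposited, by 0.14 with libraries set to 1 upper quartile, and by -0.05 with quantile normalization, and in KDM6A TubKO mice by 0.39, 0.18 and -0.04. The 7844 genes that rose and 2085 that fell in KDM6A Ctrl mice became 5791 and 3374 with the upper quartile and 3991 and 4848 with quantiles, and the 8020 and 2307 of KDM6A TubKO mice became 6178 and 3541, and 4384 and 4835. The falls of *Ppara*, *Ppargc1a*, *Ppargc1b*, *Esrra* and *Nr1h3* and the rise of *Pparg* in KDM6A Ctrl mice were called under each of these scalings.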

How the data were processed

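RNA of 20 whole left kidneys was measured by sequencing, 5 per group. The authors trimmed reads with cutadapt, aligned them to GRCm38 with HISAT2 and estimated abundance with StringTie, per the submitters' processing notes, and the deposited FPKM per gene and per transcript came from Ballgown, per the methods of the study. Versions and any filter on low values are not given in the sources used here. No read counts were used, so the depth of each library is unknown and no counting interval is given. Every FPKM column matched 1 sample by its name.

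FPKM were tested as log2(FPKM + 1) with limma 3.58.1 in R 4.3.3, with 4 group means, a variance trend and Benjamini-Hochberg adjustment over all genes or transcripts. Shares of transcripts (percent of the summed transcript FPKM of a gene, for genes with at least 2 transcripts and a mean sum of at least 1 FPKM) were tested with limma on the same 4 groups. For shares the percent was used without a log scale and without the variance trend. Kidneys with no transcript FPKM for a gene were left out of that gene. Tables were made with Python 3.11.15, pandas 2.3.3 and numpy 2.4.6, and plots with matplotlib 3.10.9.

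Members were named throughout. From each partner or target list the 3 genes with the largest rise and the 3 with the largest fall among those past an adjusted p of 0.05 could be named, with the 3 genes most like each member and the defining cell type markers. Some genes that this rule names are not reported here. The members and the 23 lists were chosen with earlier results of these data known. Symbols shared by several genes (14) were kept as separate rows.

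The results were recomputed with 0.1 as the pseudocount, without genes that averaged under 1 FPKM, on only the groups compared, with upper quartile and quantile scaling, with array weights, marker and mouse number covariates, a per-gene F-test with library size after Ballgown, removal of the length trend, a summed FPKM of at least 5 for shares, and each mouse left out. The urothelium covariate and the sum of transcript FPKM were chosen after seeing the data. Sequences came from GENCODE vM21 transcripts and RefSeq promoters (GRCm38.p6), and all 22 transcripts were found there, 4 of them in another version of the transcript. Protein sequences were not used here. The labels do not say that mice of a group came from separate litters. The p-values set group differences against the spread between these mice, taken as independent. Mice that share a litter could make such p-values too small, which was not tested.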

Additional observations from a re-analysis of the deposited data

Results flagged for a closer look

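In 3 cases 1 kidney lay further from the other 4 of its group than Dixon's limit for 5 samples allows, all among the 5 KDM6A TubKO UUO kidneys, and chance gives such a value in about 1 of 20 groups. With 10 members in 4 groups screened, about 2 would be found by chance, so 3 is near what chance gives. For *Ncoa2*, mouse 4 was listed at 3.54 FPKM and the others at 0.574 to 0.693 FPKM. For *Pparg*, mouse 2 was listed at 2.29 FPKM and the others at 1.45 to 1.65 FPKM, and this mouse had the highest urothelium marker sum of its group, 112 FPKM. For *Ppargc1a*, mouse 5 was listed at 8.01 FPKM and the others at 11.2 to 12.3 FPKM.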

How the results depend on the processing

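A filter at a mean of 1 FPKM changed none of 48 results, the fat covariate 1, the mouse number series 2 (*Ppara* between genotypes in UUO kidneys, -0.59, adjusted p 0.0522, and *Ppard* on average, -0.59, 0.0549) and a pseudocount of 0.1 changed 4 of 62. The 3 PPAR calls between genotypes in UUO kidneys were fewer under most other settings: 1 with a pseudocount of 0.1 or array weights and 0 with only the compared groups, with proximal tubule, macrophage or urothelium covariates or in the Ballgown-like F-test. The 8 members called for KDM6A Ctrl UUO became 1 with the proximal tubule covariate, 0 with macrophages and 0 in the F-test, and the 7 for KDM6A TubKO UUO became 0 in each. These losses were general: of 7844 genes that rose and 2085 that fell in KDM6A Ctrl mice 3109 and 320 were called with the proximal tubule covariate and 0 with macrophages or in the F-test, and in KDM6A TubKO mice 2308 and 209, 0, and 1. Of 3 called on average over surgeries, 1 stayed with macrophage or urothelium covariates, and of 2 in sham kidneys 1 in the F-test or with the length trend removed. Leaving out 1 mouse gave 7 to 8, 5 to 8, 1 to 2, 0 to 3 and 2 to 4 called members for KDM6A Ctrl UUO, KDM6A TubKO UUO, genotype in sham, genotype in UUO and the average, 10 to 13 transcripts and 1 to 4 shares (3 with all mice).

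Log2 values whose sign turned are given by setting, and the cause was not tested. For UUO in KDM6A Ctrl mice these were *Ppard* with upper quartile (-0.076), quantile (-0.32), urothelium (-0.072) and F-test (-0.45), *Rxrb* with quantile (-0.011), macrophages (-0.12) and F-test (-0.13), *Ncoa2* with macrophages (0.76) and F-test (0.52), *Rxra* with macrophages (1.09) and *Ppara* in the F-test (0.049). For UUO in KDM6A TubKO mice they were *Rxrb* with upper quartile (-0.20), quantile (-0.39), proximal tubule (-0.12), macrophages (-0.50), F-test (-2.0) and transcript sums (-0.00215), *Ncoa2* with upper quartile (-0.072), quantile (-0.48), length (-0.00234) and transcript sums (-0.14), *Ppard* with proximal tubule (0.063), macrophages (0.54) and F-test (2.23), *Rxra* with macrophages (1.06) and F-test (1.48), *Ppara* with macrophages (0.0046) and *Ppargc1b* in the F-test (0.88). For genotype in sham kidneys they were *Ppargc1b* with quantile (0.014), urothelium (0.023) and length (0.016), *Ppargc1a* with F-test (0.031) and length (0.093), *Esrra* with F-test (-0.015) and length (-0.00687) and *Pparg* with urothelium (0.22), and on average over surgeries *Pparg* with urothelium (0.040). Leaving out 1 mouse turned values near 0: with UUO in KDM6A TubKO mice *Rxrb* (-0.010 to 0.16) and *Ncoa2* (-0.23 to 0.15), and between genotypes in sham kidneys *Pparg* (-0.17 to 0.00396), *Ppargc1a* (-0.10 to 0.0082), *Ppargc1b* (-0.10 to 0.00354), *Rxrb* (-0.014 to 0.047) and *Esrra* (-0.042 to 0.16).

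No paired analysis was possible because no mouse or replicate number in the labels recurs in 2 groups. The depth of each library is unknown, so how far low transcripts such as those of *Pparg* are limited by reads was not measured. Genotype and line cannot be told apart, since it is not given whether controls were littermates, and neither can surgery and the markers of tubule and macrophages.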
